A study of Mus musculus with 47 samples.

Results

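Mitochondria carry their own small chromosome, and all genes annotated on it were followed here in mouse cortex. The members were the genes whose GENCODE M21 symbol starts with mt-. There were 37 such genes, all found in both deposited tables, of 54532 genes in the table of counts and 54281 in the table of transcripts per 1000000 (TPM). The authors state for the TPM that reads outside the primary chromosomes were discarded, yet the deposited TPM of the protein-coding and rRNA mt- genes is above 0 in every library, so how those reads were kept is not known. The members comprised 13 protein-coding genes, 2 ribosomal RNAs (rRNAs) and 22 transfer RNAs (tRNAs). The study asked whether daily rhythms of gene expression in the cortex persist when microglia are depleted. Male C57BL/6J mice, bought at 2 months of age and about 3 months old at collection, lived 4 to a cage under 12 h of light and 12 h of dark. For 10 days they ate control chow or chow with 1200 ppm PLX5622, an inhibitor of the receptor CSF1R on which microglia depend. Cortex was then dissected at 6 Zeitgeber times (ZT, hours after lights on), namely ZT2, ZT6, ZT10, ZT14, ZT18 and ZT22.

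The 12 groups, each a diet at a ZT, held 4 libraries apart from control ZT14 with 3, which gave 23 control and 24 PLX5622 libraries. A library held 16.6 to 27.6 M counts (M, 1000000), with a median of 19.4 M. Totals averaged 19.3 ± 2.28 M (SD, n = 23) with control diet and 21.2 ± 2.62 M (SD, n = 24) with PLX5622. Markers of cortical excitatory neurons summed to 1627 ± 218 nuclear CPM (counts per 1000000 counts of nuclear genes) (SD, n = 23) with control diet and 1613 ± 185 (SD, n = 24) with PLX5622, led by the glutamate transporter gene Slc17a7, and none of the 6 was at 0 in any library. The 12 microglial markers summed to 689.7 ± 50.9 nuclear CPM with control diet and 72.9 ± 32.9 with PLX5622. Their most abundant gene was Csf1r, which encodes the drug's target, and none of the 12 was at 0 in any library. The samples are bulk tissue, so fewer cells of a type and less RNA per cell cannot be told apart.

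The mitochondrial chromosome is transcribed from both strands into long precursors, which are cut, largely at the tRNAs between the other genes, into mRNAs, rRNAs and tRNAs. The proteins are core subunits of the respiratory chain complexes and of ATP synthase, and the rRNAs and tRNAs serve the translation of these proteins inside the organelle. Neurons draw most of their ATP from this system, and mitochondrial transcripts are among the most abundant RNAs of the brain.

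The mt- genes took a large share of every library, and that share hardly differed by diet. In the counts it ran from 6.46% in control ZT14 replicate 3 (95% Wilson interval 6.45% to 6.47%, counting error only) to 10.0% in PLX5622 ZT18 replicate 3 (9.99% to 10.0%). With control diet the lowest, median and highest shares were 6.46%, 8.57% and 9.73%, and with PLX5622 they were 6.72%, 8.54% and 10.0%. The means were 8.36% ± 1.03 (SD, n = 23) and 8.33% ± 0.900 (SD, n = 24), and PLX5622 was the higher at 3 of 6 ZT. The difference of -0.033 percentage points is far below the spread of 0.972 points between libraries of a group. In TPM the share was 16.4% to 23.5%, with means of 19.6% ± 1.71 and 19.7% ± 1.55, and PLX5622 was the higher at 5 of 6 ZT. The tables gave the mitochondrial genome a different weight, and a similar but not identical order of libraries, since the lowest share of TPM was in control ZT22 replicate 3. The shares had a Pearson r between them, after group means were removed, of 0.955 over 23 control libraries and 0.896 over 24 PLX5622 libraries (Spearman 0.931 and 0.867, and 0.938 and 0.849 for Pearson without the 2 libraries farthest from the median).

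Over the day, the share of counts was lowest at ZT14, early in the dark phase, at 7.61% ± 0.839 (SD, n = 7), and highest at ZT18, at 8.82% ± 1.14 (SD, n = 8). It was 8.75% ± 0.788 at ZT2, 8.57% ± 0.919 at ZT6, 8.18% ± 0.681 at ZT10 and 8.02% ± 0.979 at ZT22 (SD, n = 8 each). The ranges of all 6 times overlapped. In TPM the lowest and highest means fell at the same times, with 18.8% ± 1.58 at ZT14 and 20.4% ± 1.97 at ZT18. The share is a sum over the members and was not tested.

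**Figure D1:**
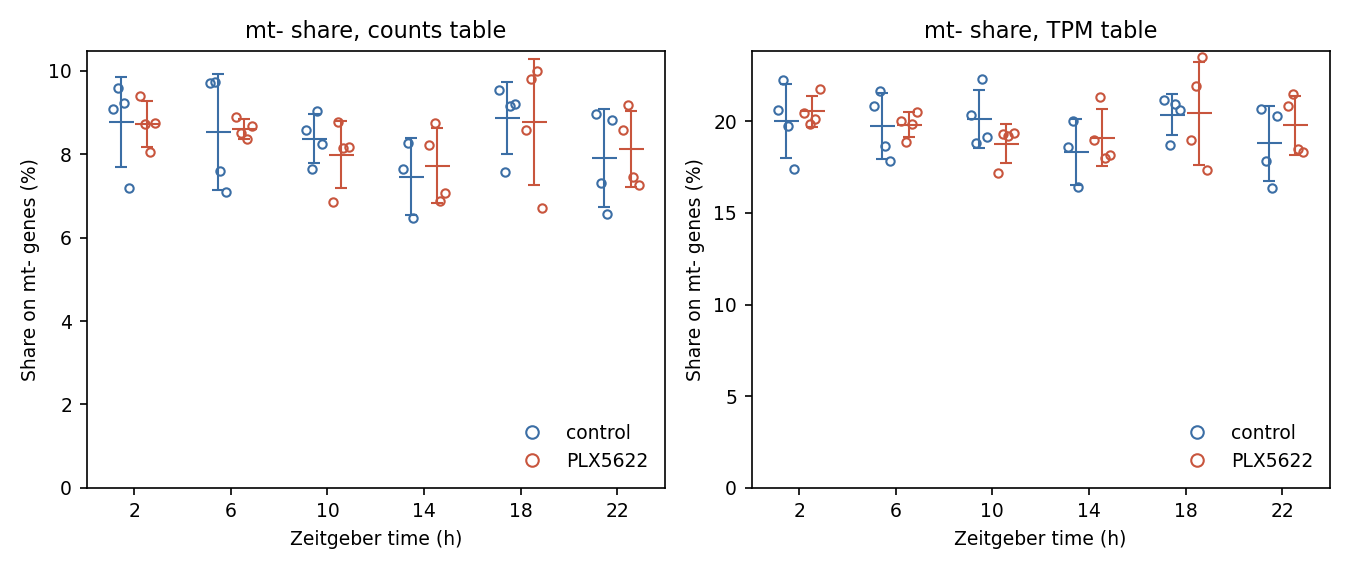
Share of each library's counts (left) and TPM (right) on the 37 mt- genes, in percent, by Zeitgeber time and diet. Each circle is a library, the bars are the mean and SD of a group of 3 or 4, and the diets overlap at every time.

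Among the subunits of complex I (NADH dehydrogenase), which pumps protons with electrons from NADH, mt-Nd1 led the counts with a median of 176628 per library (130666 to 261523) and a median TPM of 16684. mt-Nd5 had 136060 counts and 5021 TPM, mt-Nd2 had 123956 counts and 10256 TPM, and mt-Nd4 had 118235 counts and 12267 TPM, again as medians. mt-Nd6, the protein-coding gene annotated on the opposite strand from the other 12, had 41644 counts (27795 to 77571) and 6189 TPM. Of the remaining complex I subunits, mt-Nd3 had 1548 counts but 24269.5 TPM, and mt-Nd4l 454 counts but 5480.3 TPM. Per length, then, mt-Nd3 was the most abundant complex I transcript in one table and among the least abundant in the other.

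Cytochrome b of complex III, encoded by mt-Cytb, had a median of 219169 counts (159280 to 319042) and 15793 TPM. Among the subunits of complex IV, cytochrome c oxidase, mt-Co1 had the highest median of all members in both tables as deposited. It had 576594 counts (430466 to 824888) and 33580.3 TPM (27185 to 38872). That gene alone took 34.4% of mt- counts and 16.8% of mt- TPM at the median. Its rank in TPM depends on the nuclear copies described below. With the TPM of its copy added, mt-Co2 had a median of 41262, against 37247 for mt-Co1 with its own. The other complex IV subunits were mt-Co2, with 2267 counts and 6969 TPM, and mt-Co3, with 2262 counts and 20284 TPM. The ATP synthase subunits were mt-Atp6, with 2336 counts and 17261 TPM, and mt-Atp8, with 66 counts and 4875 TPM. The 12S rRNA mt-Rnr1 had 112439 counts and 10577 TPM, and the 16S rRNA mt-Rnr2 138816 counts and 6670.0 TPM.

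The tables diverged over one stretch of the chromosome, from mt-Co2 to mt-Nd4l (chrM:7013-10173). Its 6 genes, mt-Co2, mt-Atp8, mt-Atp6, mt-Co3, mt-Nd3 and mt-Nd4l, held a median of 0.561% of the mt- counts of a library (0.385% to 1.28%) but 40.9% of its mt- TPM (33.6% to 47.6%). Their median TPM was 42.6 to 297 times their median CPM (counts per 1000000 counts of the library) per kilobase, against 1.31 to 2.81 times for the other 9 protein-coding and rRNA genes. Across the 47 libraries, log2 TPM and log2 CPM of a gene had a Pearson r of 0.164 (mt-Co3) to 0.699 (mt-Atp8) inside the stretch and 0.838 (mt-Nd4) to 0.948 (mt-Rnr2) outside it. In the counts these genes were thus nearly missing from a transcript chain whose neighbours were among the most abundant RNAs.

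**Figure D2:**
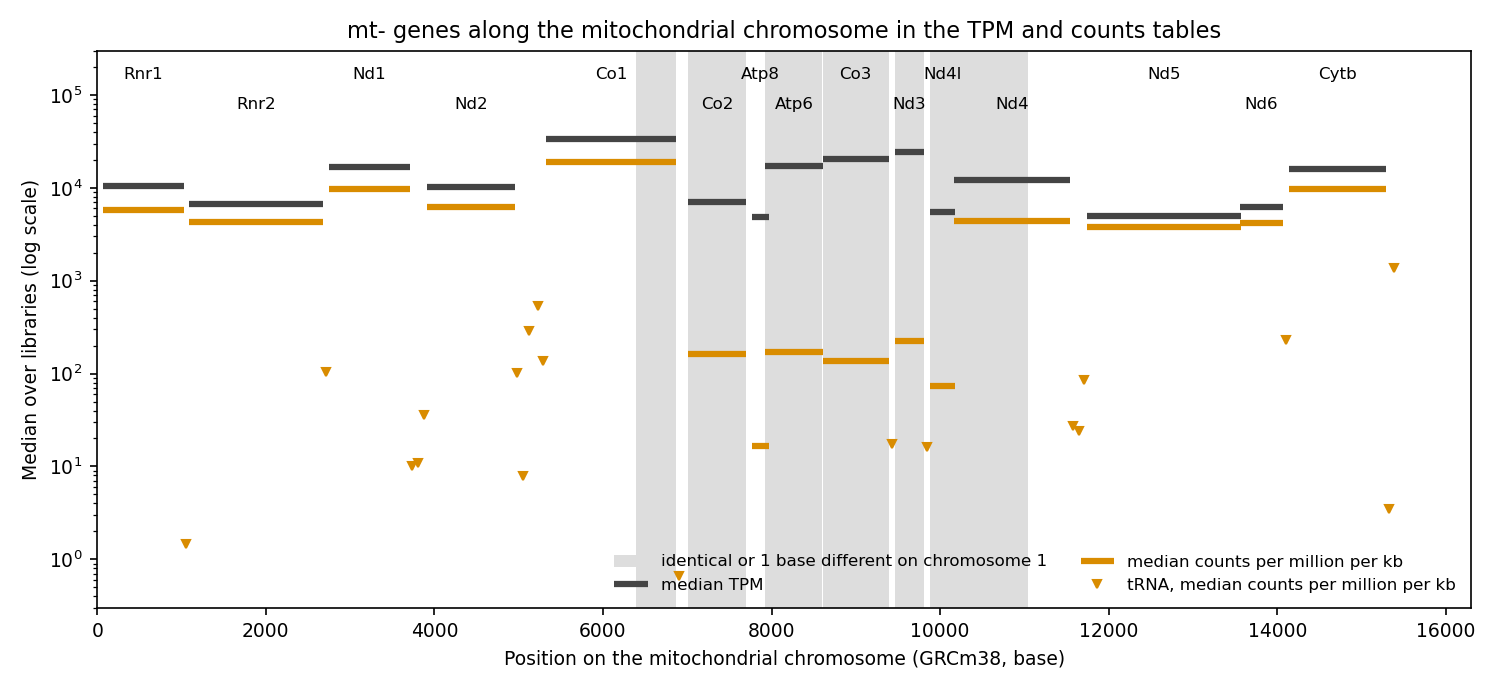
Median TPM (dark) and median CPM per kilobase (orange) over 47 libraries, on a log scale, for the rRNA and protein-coding genes (lines) and the tRNAs with a median above 0 (triangles) along the mitochondrial chromosome. Grey marks sequence found in an annotated chromosome 1 copy with at most 1 base of difference, where the counts fall far below the TPM for 5 genes with whole-length copies and, beside them, for mt-Atp8.

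The same stretch has near-identical copies in the nuclear genome. In GRCm38, the unprocessed pseudogenes Gm28661, Gm10925, Gm28437, Gm28438, Gm10222, Gm28439 and Gm29216 lie on the minus strand of chromosome 1 between 24611535 and 24616197. Aligned with blastn, Gm28661 was identical to mt-Co2 over 681 of 684 nt, Gm10925 to mt-Atp6 over 678 of 681 nt, Gm28437 to mt-Co3 over 783 of 784 nt and Gm10222 to mt-Nd4l over 294 of 297 nt. Gm28439 was identical to the first 876 of the 1378 nt of mt-Nd4, and Gm29216 matched the last 483 of the 1545 nt of mt-Co1 with a single mismatch, A1066T. Gm28438 matched mt-Nd3 over 345 of 348 nt with a single mismatch, T3C (mt- base first, then its position from 1 at the start of the mt- gene, then the base of the copy). A read of 150 bases from either source is therefore the same read over nearly all of mt-Co2, mt-Atp6, mt-Co3, mt-Nd3 and mt-Nd4l. The values of these genes in both tables are uncertain for that reason. For mt-Nd4 and mt-Co1 this applies to the copied part only.

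Only 43 of the 204 nt of mt-Atp8, those it shares with mt-Atp6, matched an annotated copy, and the unannotated sequence between the copies was not available for a check. How far the values of mt-Atp8 are uncertain is thus not known. To show how little separates a gene from its copy, the first 60 bases of mt-Nd3 (chrM:9459-9518, plus strand) and of Gm28438 (chr1:24613060-24613119, minus strand) are given 5′ to 3′, with the base that differs in capitals.
mt-Nd3: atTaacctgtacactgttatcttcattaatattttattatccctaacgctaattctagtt
Gm28438: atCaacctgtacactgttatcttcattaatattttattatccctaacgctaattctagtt

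How the reads were shared out between gene and copy differed by table. In TPM the copy took a median of 82.9% of the pair for mt-Co2 and Gm28661, 65.1% for mt-Nd4l and Gm10222, 41.6% for mt-Atp6 and Gm10925 and 36.0% for mt-Co3 and Gm28437. The copy took 0.740% for mt-Nd3 and Gm28438, where 1 base differs, and Gm28439 was listed at 0 TPM in all 47 libraries beside 12267 TPM of mt-Nd4. In the counts the copy's median part was 53.4% for mt-Co2, 56.3% for mt-Atp6, 49.5% for mt-Co3, 48.5% for mt-Nd4l and 12.8% for mt-Nd3. Summed over all 7 copies, they took 7.20% ± 0.796 of TPM with control diet and 7.24% ± 0.511 with PLX5622, against 0.0497% ± 0.0186 and 0.0641% ± 0.0142 of counts (SD, n = 23 and 24). Within pairs, the TPM of gene and copy, after group means were removed, had a Pearson r of -0.587 for mt-Atp6, -0.658 for mt-Co3, 0.502 for mt-Co2, 0.342 for mt-Co1, 0.262 for mt-Nd3 and 0.164 for mt-Nd4l over 47 libraries, whose values share each library's total. In the counts r was positive in all 7 pairs, from 0.425 for mt-Nd4 to 0.811 for mt-Atp6.

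Apart from the last part of mt-Co1 and the first part of mt-Nd4, the other members had no annotated nuclear copy this close. The nearest to mt-Co1 over its full 1545 nt was Gm13340 on chromosome 2, with 97.6% identity and 37 mismatches, where the longest identical run was 148 nt, just under a read. Over part or all of the gene, the best match was 96.7% identical for mt-Nd2 (Gm13339), 95.2% for mt-Nd5 (Gm4076), 93.6% for mt-Nd6 (Gm11408), 92.9% for mt-Cytb (Gm11410) and 88.4% for mt-Rnr2 (Gm20594). mt-Nd1 and mt-Rnr1 had no match. For contrast with the pair of mt-Nd3, 120 bases of mt-Co1 (chrM:6501-6620, plus strand) and of Gm13340 (chr2:22588355-22588474, minus strand) follow, with the 6 bases that differ in capitals.
mt-Co1: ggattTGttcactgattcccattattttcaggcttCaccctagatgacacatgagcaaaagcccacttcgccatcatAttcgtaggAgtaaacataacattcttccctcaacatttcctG
Gm13340: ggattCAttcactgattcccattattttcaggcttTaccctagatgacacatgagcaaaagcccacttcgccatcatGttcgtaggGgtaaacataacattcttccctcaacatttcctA

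Neighbours on the mitochondrial chromosome also overlap. mt-Atp8 shares its last 43 bases with mt-Atp6 (chrM:7927-7969), mt-Nd4l shares 7 with mt-Nd4, and mt-Nd5 and mt-Nd6 share 14 on opposite strands. The libraries are not stated to be stranded, so reads of mt-Nd6 and of the 8 tRNAs on the minus strand cannot be told from antisense RNA of the other strand. The last 100 bases of mt-Atp8 (chrM:7870-7969, plus strand), the member that passed the test for diet, are printed because the capitals, the bases shared with mt-Atp6, are also present in Gm10925.
mt-Atp8: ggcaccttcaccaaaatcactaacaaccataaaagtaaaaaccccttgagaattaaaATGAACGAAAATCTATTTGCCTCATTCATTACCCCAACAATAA

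The tRNAs, which carry amino acids to the mitochondrial ribosome, were seen in the counts alone. All 22, at 59 to 75 nt, were listed at 0 TPM in all 47 libraries. In the counts, the highest median was 1843 (1164 to 2711) for the proline tRNA mt-Tp, followed by 691 for the cysteine tRNA mt-Tc and 386 for the asparagine tRNA mt-Tn. In all, 8 of the 22 had a median of at least 100 counts and 6 had a median under 10. The phenylalanine tRNA mt-Tf, the aspartate tRNA mt-Td and the lysine tRNA mt-Tk had a median of 0 and were at 0 in 42, 37 and 42 of 47 libraries. A count of 0 allows up to 3 counts, which is 0.181 CPM in the smallest library and 0.109 in the largest. Counts of tRNAs may include reads of uncut precursors and of overlapping neighbours. The most and a least counted tRNA are printed whole, mt-Tp from the minus strand (chrM:15356-15422) and mt-Tf from the plus strand (chrM:1-68).
mt-Tp: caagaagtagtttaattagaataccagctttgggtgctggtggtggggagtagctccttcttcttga
mt-Tf: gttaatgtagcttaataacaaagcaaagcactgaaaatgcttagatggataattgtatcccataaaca

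Within the mt- counts, which no scaling by nuclear genes can move, the make-up was compared between diets without a test. The rRNAs took 15.3% ± 1.52 (SD, n = 23) with control diet and 15.6% ± 1.57 (SD, n = 24) with PLX5622. mt-Nd6 took 2.50% ± 0.363 and 2.66% ± 0.244, with the higher mean under PLX5622 at 5 of 6 ZT. The tRNAs took 0.240% ± 0.0263 and 0.259% ± 0.0197, with the higher mean under PLX5622 at 6 of 6 ZT. The ranges of the diets overlapped in all 3 measures. The tRNA part was led by mt-Tp, mt-Tc and mt-Tn, with medians of 0.111%, 0.0413% and 0.0246% of mt- counts. In edgeR, 9 of the 17 tRNAs tested had a log2 fold change for diet above 0, with a median of 0.02. The higher sum is therefore not a trait of the tRNAs in general. Over the day the rRNA part was lowest at ZT10, at 14.3% ± 1.03, and highest at ZT18, at 16.6% ± 1.23 (SD, n = 8 each).

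The first comparison asks which mt- genes differ between diets, PLX5622 minus control, over all 6 times. The ATP synthase subunit mt-Atp8 (ENSMUSG00000064356, chrM:7766-7969) rose with PLX5622 in both tables, and no other member passed the test in either. Both tables come from the same libraries and are not independent. The gene lies in the stretch where they diverged, with a median TPM 297 times its median CPM per kilobase. Only 43 of its 204 nt matched an annotated copy, and the part of copy reads in its values was not tested. With control diet mt-Atp8 had 1.30, 2.64 and 4.69 CPM (lowest, median, highest), and with PLX5622 1.91, 3.92 and 5.42. Its TPM was 3332, 4285 and 5595 with control diet and 3452, 5445 and 9394 with PLX5622. The diets overlapped over all libraries, and the mean was higher with PLX5622 at 5 of 6 ZT. In edgeR on the counts its log2 fold change was 0.46 ± 0.12 (SE, adjusted p = 0.00998), and in limma on log2(TPM + 1) it was 0.32 ± 0.08 (SE, adjusted p = 0.013). The p-values were adjusted over all genes tested, and a gene passed with an adjusted p under 0.05. In edgeR, 1 of the 32 mt- genes kept by the filter on low counts passed, beside 6.80% of all 18274 genes (331 higher and 912 lower). In limma, 1 of the 15 mt- genes kept passed, beside 3.45% of all 14580 genes (127 higher and 376 lower). The members' share was below that of all genes in edgeR and above it in limma, from a single gene, and the shares were not compared by a test.

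By time, the means of mt-Atp8 in the counts were furthest apart at ZT22, and those in TPM at ZT18, with 4756 ± 384 TPM with control diet and 6962 ± 1965 with PLX5622 (SD, n = 4 each). At ZT22 the control libraries had 3.05, 2.35, 1.30 and 1.86 CPM and the PLX5622 libraries 4.65, 5.42, 4.23 and 3.60. At ZT2 they had 2.22, 2.80, 3.06 and 1.53 against 3.36, 4.56, 4.28 and 3.86. In the counts the diets did not overlap at these times, chosen from 6 for that reason, while at ZT18 they overlapped. The 6.80% of all genes that passed for diet is a share over all times, and how many genes do not overlap at a single time was not counted. At ZT14 the 3 control libraries had 4.69, 3.94 and 3.69 and the 4 PLX5622 libraries 2.03, 3.35, 4.77 and 2.30, and there the control mean of mt-Atp8 was the higher. These are 25 to 127 counts in a library, and requiring a mean count of at least 100 removed the gene from the test, with no mt- gene then past the threshold.

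Next in edgeR came members that missed the threshold. They were mt-Tn (log2 0.29, adjusted p = 0.0535), mt-Co2 (0.51, adjusted p = 0.0751), mt-Tc (0.21, adjusted p = 0.0951) and mt-Atp6 (0.31, adjusted p = 0.0995). Of these, mt-Tn passed with library totals and no factors, without a filter and with ZT as 6 levels. mt-Co2 had 62.9, 94.5 and 200.1 CPM with control diet and 91.0, 125 and 772 with PLX5622, where the highest was a single library at ZT2. Of the other 12 rRNA and protein-coding genes, mt-Nd4l had 0.19, and for the remaining 11 the log2 fold change in the counts lay between -0.04 and 0.07. mt-Co1 had -0.04 ± 0.05 (SE) in counts and -0.00 ± 0.04 in TPM, and mt-Cytb had -0.04 ± 0.06 and -0.02 ± 0.04. Over the 32 members the median was 0.02 in the counts with 17 above 0, and over all genes it was 0.01.

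Some of the copies on chromosome 1 moved with diet in the counts. Of the 7, 4 rose with PLX5622 in edgeR, beside 6.80% of all genes (median log2 fold change 0.39), with 0.50 for Gm10925, 0.46 for Gm28437, 0.45 for Gm28438 and 0.39 for Gm28439. In limma on TPM 0 of 6 passed, 1 with an unadjusted p under 0.05, and the median was 0.09. When the counts of each copy were added to its mt- gene, a step chosen after seeing the data, mt-Atp6 passed as well (log2 0.42, adjusted p = 0.0202), while mt-Co2 had 0.34 (adjusted p = 0.141). In TPM, the same sum gave mt-Atp6 0.03 (adjusted p = 0.720) and mt-Co2 -0.00 (adjusted p = 0.970). The 12 microglial markers moved with diet as well, and 12 of 12 fell with a median of -3.47 in the counts. Among them were P2ry12 (-3.50), Tmem119 (-3.21), Trem2 (-3.03), Siglech (-3.73), Ctss (-3.45), C1qb (-3.53), Aif1 (-2.55), Cx3cr1 (-3.54) and C1qa (-3.59). Their part in the difference of mt-Atp8 was not tested.

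**Figure D3:**
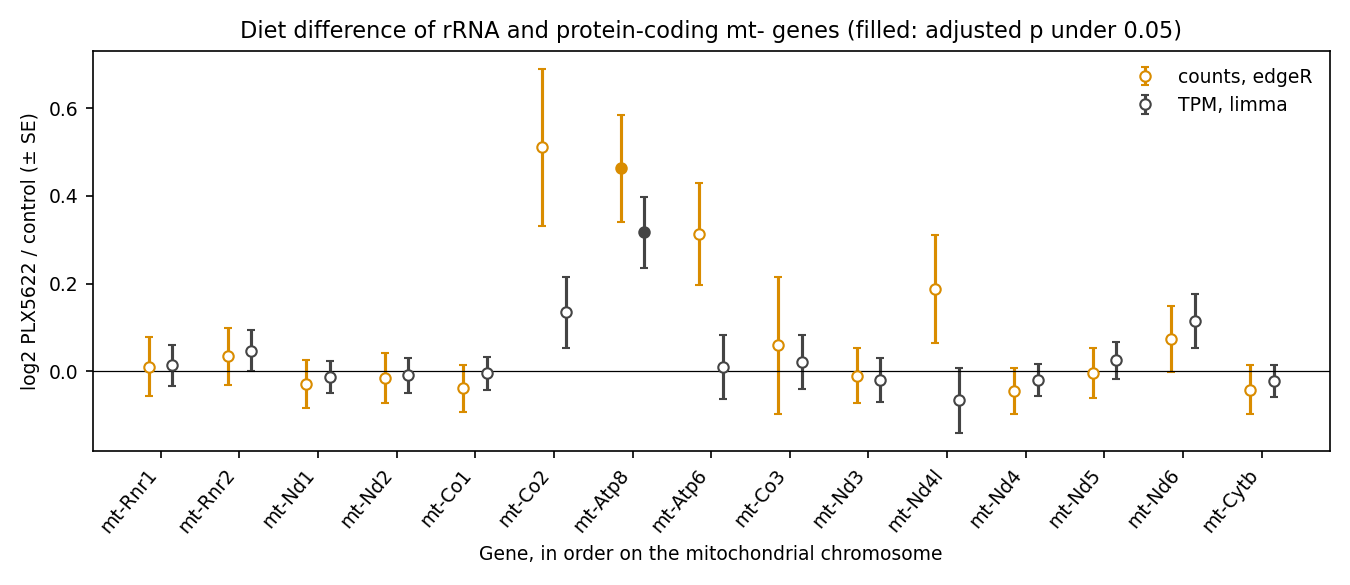
Log2 ratio of PLX5622 to control, with its SE, for the 2 rRNA and 13 protein-coding mt- genes in their order on the chromosome, from edgeR on counts and limma on TPM. Filled points have an adjusted p under 0.05, which is mt-Atp8 in both tables.

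Nuclear genes that make, process and use these transcripts were read against the 6.80% of all genes that passed for diet in edgeR and the 3.45% in limma, and counts this near those shares are no result about the lists. Of 17 genes for transcription and replication of mitochondrial DNA, 0 passed in edgeR, with 2 at an unadjusted p under 0.05, and 0 passed in limma or DESeq2. Among them, the RNA polymerase gene Polrmt had a log2 fold change of -0.04 ± 0.03 (SE) and Tfam, which packs the DNA and starts transcription, 0.04 ± 0.03. Of 26 genes for processing and stability of mitochondrial RNA, 1 fell and 0 rose, namely Fastk (log2 -0.16 ± 0.04, adjusted p = 0.0127 in edgeR and 0.013 in limma), of a family of mitochondrial RNA-binding proteins. Lrpprc and Slirp, whose products bind and protect mitochondrial mRNAs together, had 0.07 ± 0.04 and -0.20 ± 0.12. Of 9 regulators of mitochondrial biogenesis 0 passed in edgeR, with 1 at an unadjusted p under 0.05, and 0 in limma or DESeq2, and Ppargc1a, a coactivator of that programme, had 0.03 ± 0.03.

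Of 26 nuclear partner subunits of the same complexes, 1 rose in edgeR, the complex III core protein gene Uqcrc2 (0.10 ± 0.03, adjusted p = 0.04), which did not pass in limma (0.14 ± 0.05, adjusted p = 0.091). Of the 4 subunits of complex II, which has no mitochondrially encoded part, 0 passed in edgeR, limma or DESeq2. At an unadjusted p under 0.05 were 0 in edgeR, 1 in limma and 0 in DESeq2. Median log2 fold changes of these 5 lists lay between -0.02 and 0.02, beside 0.01 over all genes. The lists for other cell types are not all given here. In edgeR 1 of 6 astrocyte genes rose (Gfap, an intermediate filament, 0.53 ± 0.09, adjusted p = 1.52e-05), and it passed in limma too. In edgeR 1 of 6 excitatory neuron genes fell (Cux2, of upper layers, -0.18 ± 0.04, adjusted p = 0.00419), which did not pass in limma (adjusted p = 0.573). Of 7 choroid plexus markers 0 passed in edgeR, with 4 at an unadjusted p under 0.05, and 0 in DESeq2, but 3 rose in limma, namely the transthyretin gene Ttr (0.80 ± 0.24, adjusted p = 0.0452), Kcne2, of a potassium channel (0.46 ± 0.14, adjusted p = 0.0475), and Kl, the klotho gene (0.40 ± 0.12, adjusted p = 0.048). All 7 had a positive log2 fold change in the counts, with a median of 0.41, and they summed to 458.1 ± 262 nuclear CPM with control diet (SD, n = 23) and 676 ± 218 with PLX5622 (SD, n = 24), led by Ttr, with none at 0 in any library. Their part in the mt- results was not tested. Of 7 nuclear-retained RNAs 1 rose, Kcnq1ot1 (0.41 ± 0.11, adjusted p = 0.00946), which was not tested in TPM.

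The second comparison asks which mt- genes follow the time of day, as a 24 h cosine shared by both diets. Those that passed were mt-Rnr1 and 4 tRNAs in the counts and the rRNAs in TPM. In edgeR 5 of 32 members passed, beside 11.3% of all genes, and in limma 2 of 15, beside 5.26% of all genes. The share in the counts is near that of all genes and is no result about the members as a set. The 12S rRNA mt-Rnr1 passed in both tables, with an amplitude of 0.17 on the log2 scale and a peak at ZT22.0 in the counts (adjusted p = 0.042) and 0.14 with a peak at ZT21.5 in TPM (adjusted p = 0.0188). Its group means ran from 5022.5 ± 579 CPM (SD, n = 4, PLX5622 ZT14) to 6776 ± 1356 (SD, n = 4, PLX5622 ZT18), and the lowest and highest library were 4037 and 8344. The libraries of these 2 groups overlapped, from 4361 to 5613 and from 5266 to 8344. mt-Rnr2 had an amplitude of 0.14 in the counts (adjusted p = 0.0828, though it passed there with ZT as 6 levels) and of 0.12 in TPM with a peak at ZT21.5 (adjusted p = 0.0492). The call of mt-Rnr1 in the counts was lost with upper-quartile factors (adjusted p = 0.0745) and without a filter (0.0571), within a range of 0.0193 to 0.0745 over the alternatives, and that of mt-Rnr2 in TPM with a pseudocount of 0.1 (0.0503), without a filter (0.0824) and after rescaling to nuclear genes (0.0597), within 0.0196 to 0.0824. Without each library in turn, mt-Rnr1 passed in the counts in 21 of 47 fits and mt-Rnr2 in TPM in 11 of 47. Both calls lay near the threshold and were lost in most of these fits.

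Among the tRNAs, 4 of the 17 tested followed time in edgeR, in counts that may come from precursors or neighbours. The glutamate tRNA mt-Te was highest at ZT2, with 19.3 ± 5.54 CPM (SD, n = 4) with control diet and 19.1 ± 1.35 (SD, n = 4) with PLX5622, and lowest at ZT14, with 11.7 ± 2.52 (SD, n = 3) and 13.4 ± 2.28 (SD, n = 4). Its amplitude was 0.23 with a peak at ZT2.75 (adjusted p = 0.00514). The others were the tryptophan tRNA mt-Tw (0.24, peak ZT2.80, adjusted p = 0.0116), the leucine tRNA mt-Tl1 (0.28, peak ZT4.78, adjusted p = 0.0145) and the glycine tRNA mt-Tg (0.40, peak ZT1.58, adjusted p = 0.0367). In the fitted cosines these tRNAs peaked early in the light phase and the rRNAs late in the dark phase, on either side of lights on. This is a description, since the peaks were not compared by a test. The means by time placed the rRNAs differently, since both were highest at ZT18 in both tables and lower at ZT22 than at ZT2. In the counts mt-Rnr1 averaged 6610 CPM at ZT18, 5835 at ZT22 and 6199 at ZT2, and mt-Rnr2 averaged 8027, 7134 and 7704. No protein-coding member passed for time in edgeR or limma, and those with an unadjusted p under 0.05 were mt-Atp6 in edgeR and mt-Nd4l, mt-Atp8 and mt-Nd5 in limma. In TPM mt-Nd4l and mt-Atp8 passed with ZT as 6 levels, and mt-Nd4l with the copies added, a step chosen after seeing the data. mt-Tg has a median of 23 counts, and its call was lost without a filter (adjusted p = 0.0548) and with ZT as 6 levels (0.0616), within 0.0176 to 0.0616 over the alternatives.

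Of the nuclear lists, 2 of 17 genes for mitochondrial DNA transcription and replication followed time in edgeR (Twnk, the mitochondrial DNA helicase, and Mgme1, an exonuclease), 4 of 26 for RNA processing (Nsun3, Fastkd2, Fastkd5 and Mto1) and 1 of 9 biogenesis regulators (Gabpa). These shares lie near the 11.3% of all genes and are no result about these lists. Among marker lists, 5 of 5 endothelial genes followed time in edgeR and 2 of 5 in limma, and 4 of 6 immediate early genes in edgeR and 3 of 6 in limma. The endothelial genes, led by Flt1, summed to 268 ± 23.7 nuclear CPM at ZT10 and 323 ± 21.3 at ZT2 (SD, n = 8 each), and the immediate early genes, led by Egr1, to 309.9 ± 118 at ZT6 (SD, n = 8) and 936 ± 182 at ZT14 (SD, n = 7), with none at 0 in any library. Their part in the mt- results was not tested. Of the 26 partner subunits and the 4 subunits of complex II, 0 passed for time in edgeR, with 0 at an unadjusted p under 0.05, and 0 passed in limma or DESeq2. At an unadjusted p under 0.05 were 1 partner subunit and 2 of complex II in limma, and 1 and 0 in DESeq2. Polrmt had an amplitude of 0.01, Tfam 0.05, Lrpprc 0.03 and Ppargc1a 0.06, none past the threshold.

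The third comparison asks whether the daily pattern of a member depends on diet. In edgeR 0 of 32 members and 0% of all 18274 genes passed, with 4 members and 1012 genes at an unadjusted p under 0.05. In limma 0 of 15 members and 0% of all 14580 genes passed, with 3 and 669, and in DESeq2 0 members and 0 genes, with 5 and 1075. The 4 members in edgeR were mt-Co2, mt-Nd4l, mt-Atp8 and mt-Atp6, all of the stretch with copies on chromosome 1, each with an adjusted p of 0.862. The 3 in limma were mt-Nd6, which lies outside the stretch, mt-Atp8 and mt-Co2. For mt-Co2 the fitted peak was at ZT11.8 with control diet and ZT0.735 with PLX5622, with amplitudes of 0.35 and 0.50. The PLX5622 fit of mt-Co2 includes a single library of 772 CPM at ZT2, where the other 3 had 131 to 151, and the peak and amplitude without that library were not recorded. For mt-Atp8 it was at ZT12.7 and ZT23.2, with amplitudes of 0.30 and 0.27. Those differences in phase did not pass the correction. mt-Rnr1 had amplitudes of 0.18 and 0.15 with peaks at ZT21.8 and ZT22.2 (adjusted p = 0.982).

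The last comparison asks whether libraries with the same replicate number, from 1 to 4, resemble each other across groups; the labels do not say what a number stands for. The mt- share of counts averaged 8.67% ± 0.807 for number 1, 8.66% ± 0.842 for number 2, 8.08% ± 1.13 for number 3 (SD, n = 12 each) and 7.93% ± 0.881 for number 4 (SD, n = 11). In 10 of the 11 groups with both, number 4 lay below number 1, and in TPM in 8 of 11, with means of 19.9% ± 1.20 and 19.2% ± 1.48. In edgeR 9 of 32 members differed by number, beside 20.8% of all genes, and in limma 1 of 15, beside 19.7%. Replicate number thus moved many genes of the whole table. The members' share was above that of all genes in edgeR and below it in limma, and the shares were not compared by a test.

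The members that differed by number in edgeR were the 2 rRNAs, mt-Nd3, mt-Nd5 and 5 tRNAs, whose counts may come from precursors or neighbours. The leucine tRNA mt-Tl1 had the smallest adjusted p (0.000877), with 9.61 ± 2.59 CPM for number 1 (SD, n = 12) and 6.66 ± 0.882 for number 4 (SD, n = 11), a log2 difference of -0.54. Its range for number 1 was 6.24 to 14.4 and for number 4 it was 5.57 to 8.22, and number 4 was the lower in 10 of 11 groups. The leucine tRNA mt-Tl2 differed by -0.89, the serine tRNA mt-Ts2 by -0.82, mt-Tn by -0.40 and mt-Tw by -0.34. mt-Rnr2 had 7719 ± 1280.4 CPM for number 1 and 6553 ± 699 for number 4, a difference of -0.27 in edgeR (adjusted p = 0.0143) and -0.17 in limma (adjusted p = 0.0468). mt-Nd3 differed by -0.29, mt-Nd5 by -0.25 and mt-Rnr1 by -0.23, the latter with an adjusted p of 0.0494. mt-Rnr1 and mt-Tw lost their call with library totals and no factors (adjusted p = 0.0538 and 0.0784), and mt-Rnr2 in TPM without a filter (0.0738) and after rescaling to nuclear genes (0.0505). The 21 members that passed without a filter on low counts, beside 10.5% of 37182 genes, show that this count depends on that filter.

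**Figure D4:**
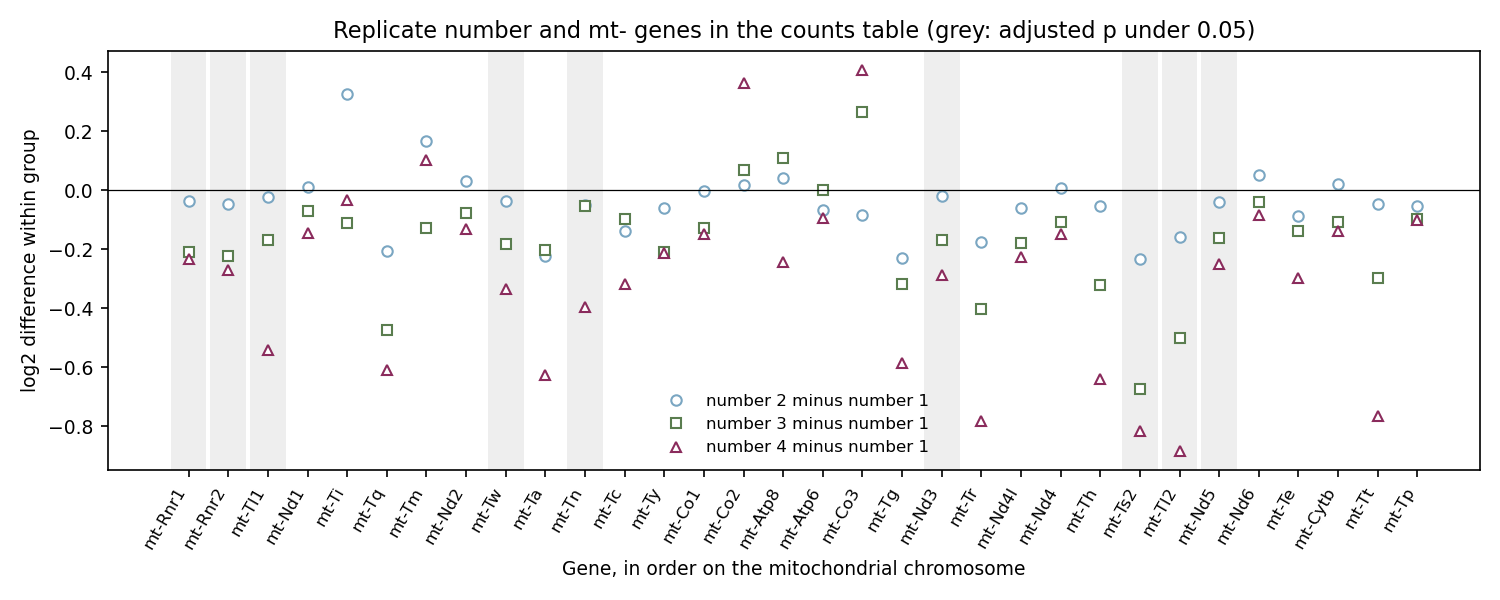
Log2 difference of replicate numbers 2, 3 and 4 from number 1 within groups, from edgeR on counts, for the 32 mt- genes tested, in their order on the chromosome. Grey marks the 9 genes with an adjusted p under 0.05 for replicate number.

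Some lists of markers of cells and of neuronal activity also moved with replicate number, and others did not. All 6 immediate early genes, which neurons switch on when active, passed for number in edgeR and in limma, beside 20.8% and 19.7% of all genes, with a median log2 difference of 1.10 between numbers 4 and 1. Their summed level was 431.9 ± 221 nuclear CPM for number 1 (SD, n = 12) and 721 ± 190 for number 4 (SD, n = 11), led by Egr1, with none at 0 in any library. All 6 astrocyte markers passed as well in edgeR and 2 of 6 in limma, with a median of -0.30 and sums of 7137 ± 391 and 5872 ± 533, led by Slc1a2. Neuronal markers moved the other way, with 4 of 6 excitatory genes past the threshold in both tools (median 0.23, sums of 1544 ± 176 and 1735 ± 191) and 3 of 6 inhibitory genes in edgeR and 4 of 6 in limma (median 0.27, sums of 785 ± 81.4 and 945 ± 93.1), and 4 of 5 blood genes passed in edgeR, with a median of -0.14, and 1 of 5 in limma. Of the 26 nuclear partner subunits 9 passed in edgeR and 4 in limma. Of 12 microglial, 7 choroid plexus and 4 mural markers 0 passed in edgeR, with 0 at an unadjusted p under 0.05, and 0 passed in limma or DESeq2. An unadjusted p under 0.05 was seen for 4 of the microglial markers in limma and for 2 in DESeq2. Of 5 endothelial markers 1 passed in edgeR. Over all genes the median was -0.02, and over the 32 mt- genes -0.25. The part of these lists in the mt- differences was not tested.

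Within diets, the mt- share of counts was set beside 22 other measures of the same libraries, with group means removed, as a description of 44 relations. The share had almost no linear relation with depth, with a Pearson r of 0.0114 over 23 control libraries and 0.119 over 24 PLX5622 libraries (Spearman 0.132 and 0.126, and 0.00238 and 0.0379 for Pearson without the 2 farthest libraries). With the summed nuclear-retained RNAs, long noncoding RNAs such as Malat1 and Meg3, r was 0.757 with control diet and 0.381 with PLX5622 (Spearman 0.666 and 0.280, and 0.6625 and 0.229 without the 2 farthest). With the inhibitory neuron markers it was -0.145 and -0.729 (Spearman -0.0514 and -0.749, and -0.0415 and -0.718). With the nuclear partner subunits of the respiratory chain it was 0.324 and 0.613 (Spearman 0.413 and 0.634, and 0.188 and 0.617). With the microglial markers it was -0.323 and 0.00753 (Spearman -0.285 and 0.0661, and -0.217 and 0.0061). These points share the library total. Some relations differed in size or sign between the diets, a difference that was not tested, and others had 1 sign in both. With the excitatory neuron markers r was -0.433 and -0.276 (Spearman -0.4565 and -0.28, and -0.289 and -0.259 without the 2 farthest). With the immediate early genes it was -0.231 and -0.349 (Spearman -0.202 and -0.254, and -0.4505 and -0.362). With choroid plexus markers r was 0.165 and 0.638 (Spearman 0.0445 and 0.447, and 0.348 and 0.317), with endothelial markers -0.454 and 0.293 (Spearman -0.402 and 0.286, and -0.430 and 0.419), and with blood markers -0.448 and 0.577 (Spearman -0.284 and 0.572, and -0.279 and 0.6035).

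A ranking of 8018 nuclear genes used the Pearson r of their share of nuclear counts with the mt- share over the 47 libraries, with group means removed. The highest r was that of Ift20, a part of the intraflagellar transport machinery of cilia (Pearson r 0.828, Spearman 0.794). Next came the neuronal RNA-binding protein gene Celf4 (0.822), the ubiquitin ligase adaptor gene Spop (0.810), Rabl6 (0.805) and the phosphatase subunit gene Ppp6r1 (0.783). At the other end were Polr2b, which encodes the second largest subunit of RNA polymerase II (-0.807), Cand1, a regulator of ubiquitin ligases (-0.804), Appbp2 (-0.804), Ncoa4, a receptor for the turnover of ferritin (-0.800), and Fbxw11, a ubiquitin ligase subunit (-0.798). Without the 2 farthest libraries Ift20 had an r of 0.801, Celf4 and Rabl6 0.803 each, and Polr2b -0.801. By Spearman, Celf4 (0.833) and Rabl6 (0.817) lay above Ift20, and Appbp2 (-0.818) lay below Polr2b (-0.786). The order at each end thus depends on the measure. From the 5% to the 95% quantile, r over all 8018 genes ran from -0.645 to 0.607, so that strong relations of either sign were common.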

How the data were processed

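The authors deposited a table of counts, which holds whole numbers although its name says FPKM, and a table of TPM. The authors state STAR, featureCounts and mm10 without saying for which table, and for the deposited TPM STAR v2.7.0f on GRCm38.p6 and Salmon v1.0.0 with the comprehensive Gencode annotation, with reads outside the primary chromosomes discarded, although mt- genes have TPM. How reads with several matches were handled is not stated for the deposited counts. Deposited values were used as they are, with GENCODE M21 symbols.

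Counts were tested with edgeR 4.0.16 (quasi-likelihood, TMM factors, filterByExpr), and with DESeq2 1.42.0 as an alternative. TPM was tested with limma 3.58.1 on log2(TPM + 1), in genes averaging 1 TPM or more. Diet and time of day were fitted together, time as a 24 h cosine and sine. Diet by time added their products, and replicate number was a factor beside the 12 groups. Adjusted p is Benjamini-Hochberg over all genes tested. In simulated counts with planted differences, the likelihood ratio test of DESeq2 for time and replicate number made more false calls than its nominal rate, so that the self-test of it was held to a looser bound, chosen after its result was seen. Other work used R 4.3.3, Python 3.11.15, numpy 2.4.6, pandas 2.3.3, scipy 1.17.1, matplotlib 3.10.9 and blastn 2.17.0+.

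Named are all rRNA and protein-coding mt- genes, tRNAs that passed a test or had the highest 3 or the lowest counts, and list genes from those that passed for diet in edgeR (up to 10 a list by adjusted p, not all of them given). Choroid plexus genes that passed in limma and list genes that passed for time were added after seeing the data. Polrmt, Tfam, Lrpprc, Slirp and Ppargc1a are always named. The lists were mitochondrial DNA transcription and replication, mitochondrial RNA processing, biogenesis regulators, partner subunits, complex II, copies on chromosome 1, nuclear-retained RNAs, cell type markers and immediate early genes. A list symbol with several identifiers was taken as the one with most counts. The members and lists were chosen with earlier results of these data known.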

Additional observations from a re-analysis of the deposited data

Results flagged for a closer look

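In 8 measures, each group of 4 libraries was searched for a library far from the other 3, and 3 of 88 groups tested had one. By chance such a library is found in about 1 in 20 groups. The mt- share of TPM of PLX5622 ZT10 replicate 1 was 17.2%, and the others of its group had 19.2% to 19.4%. mt-Co2 had 772 CPM (counts per 1000000) in PLX5622 ZT2 replicate 4, and 131 to 151 in the others. mt-Nd6 had 1606 CPM in control ZT2 replicate 4, and 2114 to 2173 in the others.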

How the results depend on the processing

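Values are numbers of mt- genes past the threshold unless stated, and the cause of a change was not tested except where named.

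For diet in the counts, 1 member passed. It was 2 with library totals and no factors, 2 without a filter, 2 with ZT as 6 levels, and 0 with a mean count of at least 100, where mt-Atp8 was not tested. With copies on chromosome 1 added, chosen after seeing the data, it was 2. Without each library in turn it was 1 to 3, and 1 in 34 of 47 cases; it was 3 without control ZT2 replicate 1, control ZT10 replicate 4, control ZT14 replicate 1 or PLX5622 ZT14 replicate 1. mt-Atp8 passed in all 47, with log2 0.42 to 0.51 and adjusted p up to 0.0181, and in 9 of 9 alternatives that tested it (adjusted p 0.00325 to 0.0125). In TPM 1 passed throughout, and mt-Atp8 had 0.28 to 0.34 without each library in turn (adjusted p up to 0.0244).

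For time of day in the counts, 5 passed, 4 with upper-quartile factors, 6 with DESeq2, 3 without a filter, 4 with a mean count of at least 100, 8 with ZT as 6 levels, and 3 to 8 without each library in turn. It was 8 without PLX5622 ZT10 replicate 2. It was 3 without control ZT2 replicate 1, 2 or 3, control ZT14 replicate 1 or 3, PLX5622 ZT2 replicate 1 or PLX5622 ZT14 replicate 3 or 4. mt-Te, mt-Tl1 and mt-Tw passed in 47 of 47, mt-Tg in 38 and mt-Rnr1 in 21. In TPM 2 passed, 1 with a pseudocount of 0.1, 1 without a filter, 1 after rescaling to nuclear genes, 4 with ZT as 6 levels, 3 with copies added, and 1 to 3 without each library in turn, 3 without control ZT22 replicate 3. mt-Rnr2 passed in 11 of 47 and mt-Rnr1 in 47.

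For replicate number in the counts, 9 passed, 11 with upper-quartile factors, 7 with no factors, 12 with DESeq2, 21 without a filter, 10 with a mean count of at least 100, and 6 to 13 without each library in turn, 6 without control ZT2 replicate 4 or control ZT6 replicate 4 and 13 without control ZT18 replicate 2. mt-Nd5 passed in 45 of 47, mt-Ts2 in 44, mt-Tw in 23 and mt-Rnr1 in 18. In TPM 1 passed, 0 without a filter, 0 after rescaling to nuclear genes, and 0 to 2 without each library in turn; mt-Rnr2 passed in 12 of 47. For diet by time 0 passed in every alternative and in both tables.

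With replicate number as a block, 3 members passed for diet (mt-Atp8, mt-Tc and mt-Tn) and 8 for time of day in the counts (the 5 reported, mt-Rnr2, mt-Tn and mt-Ts2), and 1 and 2 in TPM. Libraries of the same number had a mean r of 0.115 (-0.546 to 0.489, 253 pairs), those of different numbers -0.038, and 26 of 47 were closest to their own number. Numbers count as pairs only where every pair has an r over 0.1, which was not met, although libraries of a number were more alike on average.

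The difference between diets in the mt- share was -0.119 to 0.0366 percentage points of counts and -0.0348 to 0.250 of TPM without each library in turn.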
